A study of Mus musculus with 4 samples.

Results

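The receptors through which granulocyte/monocyte progenitors (GMP) read hematopoietic growth factors are described here in Icsbp-deficient and wild type mice. The set was fixed by gene symbol and holds 9 genes of the 12393 with a symbol of their own on both array types: Csf1r, Csf2ra, Csf2rb, Csf2rb2, Csf3r, Kit, Flt3, Il3ra and Epor. All probe sets that the platform annotation gives to these genes were used, 14 on the 430A array and 15 on the MOE430_2 array. A probe set is a group of short oligonucleotides that reads one transcript, and 1 of the 14 is annotated to both Csf2rb and Csf2rb2. GMP are bone marrow cells, isolated here by flow cytometry, that give rise to granulocytes and monocytes. Icsbp (Irf8) belongs to the interferon regulatory factors, a family of transcription factors.

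Each of 4 arrays carried a separate preparation of pooled marrow from mice 10 to 16 weeks old. One wild type and one Icsbp-deficient preparation were hybridised to each array type. Wild type pools came from at least 10 mice and Icsbp-deficient pools from at least 8. On the 430A type, the wild type cells came from mice of mixed background (C57/Bl6 - S129Ola), and their genotype is taken from the design text of the series, since the sample's own label gives none. For biotin labelling, 5 µg of RNA and an ENZO kit were used for the Icsbp-deficient 430A array, and 1 to 2 µg and a one-cycle kit for the MOE430_2 arrays. No source used here gives the kit of the remaining array, the Icsbp allele or the strain of the deficient mice.

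Growth factor receptors fall into a pair of families. Csf1r, Kit and Flt3 are receptor tyrosine kinases, which pair up on binding macrophage colony-stimulating factor (M-CSF), stem cell factor or Flt3 ligand and phosphorylate themselves. The cytokine receptors have no kinase of their own and signal through attached JAK kinases, which activate STAT transcription factors and the Ras pathway. Among them Csf3r (granulocyte colony-stimulating factor, G-CSF) and Epor (erythropoietin) act as pairs of one chain, whereas the receptors for granulocyte-macrophage colony-stimulating factor (GM-CSF) and interleukin-3 join a ligand-specific alpha chain, Csf2ra or Il3ra, to a signalling beta chain. Csf2rb is the shared beta chain. Csf2rb2 is a closely related gene of the mouse whose product serves interleukin-3 alone, and both lie next to each other in the gene order, with 1 microRNA gene between them.

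Signals are linear, with every array brought to the same trimmed mean, 500. A ratio sets Icsbp-deficient against wild type cells as a difference of log2(signal + 50), which understates the change of low signals. The ± values are limma's standard errors (n = 2 ratios, 1 an array type), for which other probe sets lend most of the degrees of freedom. Adjusted p-values are from limma over all 13576 tested probe sets, with array type as a block. The identifiers of the probe sets stand on the plot of signals by array. Transcript levels of different probe sets are not compared with each other, since each has its own affinity.

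GMP marker genes were high on every array. All 11 measured genes of the list, among them Mpo, Cd34 and the receptor Kit, passed the filter on low signals. Their scaled signals summed to 88628.5 (wild type) and 90828 (Icsbp-deficient) on the 430A arrays and to 124700 and 153033 on the MOE430_2 arrays. Lymphoid markers summed to between 664 and 1038 over 10 genes, of which 1 was tested. No marker of any list was listed at 0 on any array. Of the 11 genes 2 rose and 1 fell. Fcgr3 rose by 1.00 on the log2 scale (limma adjusted p = 0.000271 over genes) and Cebpa by 0.69 (limma adjusted p = 0.00626 over genes). Cd34, a surface marker of GMP, fell from 2625 to 819 on the 430A and from 3032 to 811 on the MOE430_2 arrays (limma adjusted p = 3.25e-05 over genes). Of the 5 tested megakaryocyte genes 1 fell, and the 7 measured summed to 1273 and 956 on the 430A and to 681 and 439 on the MOE430_2 arrays. In bulk RNA of this kind, fewer cells of a type and less RNA per cell cannot be told apart.

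The alpha chain of the GM-CSF receptor and a probe set shared by the beta chains rose in Icsbp-deficient GMP, and no receptor fell. Of the 14 probe sets on both array types, all of which passed the filter on low signals, 2 rose and 0 fell at an adjusted p below 0.05, that is 14.3% and 0%. Over all tested probe sets 2.99% rose and 2.14% fell. The 2 that rose are the main probe set of Csf2ra and the one shared by Csf2rb2 and Csf2rb. Without array type as a block 0 of the 14 were called. In this setting, also when 1 array was left out, the arrays of both types were quantile normalized together. With 1 array left out, the block leaves no residual degrees of freedom, and without it 0 were called again. An unadjusted limma p below 0.05 was reached by 5 of the 14, all with positive ratios and these 2 included, beside 18.6% of all tested probe sets. The median log2 ratio over the 14 was 0.22, against -0.01 over all tested probe sets. With 1 probe set a gene and a fit over 7822 genes, 2 of the 9 genes rose, Csf2ra and Csf2rb, and 0 fell, beside 4.10% of all genes that rose and 3.27% that fell. The small number of probe sets makes these shares coarse, and the genes were chosen with earlier results of these data known, so they are given as a description.

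**Figure D1:**
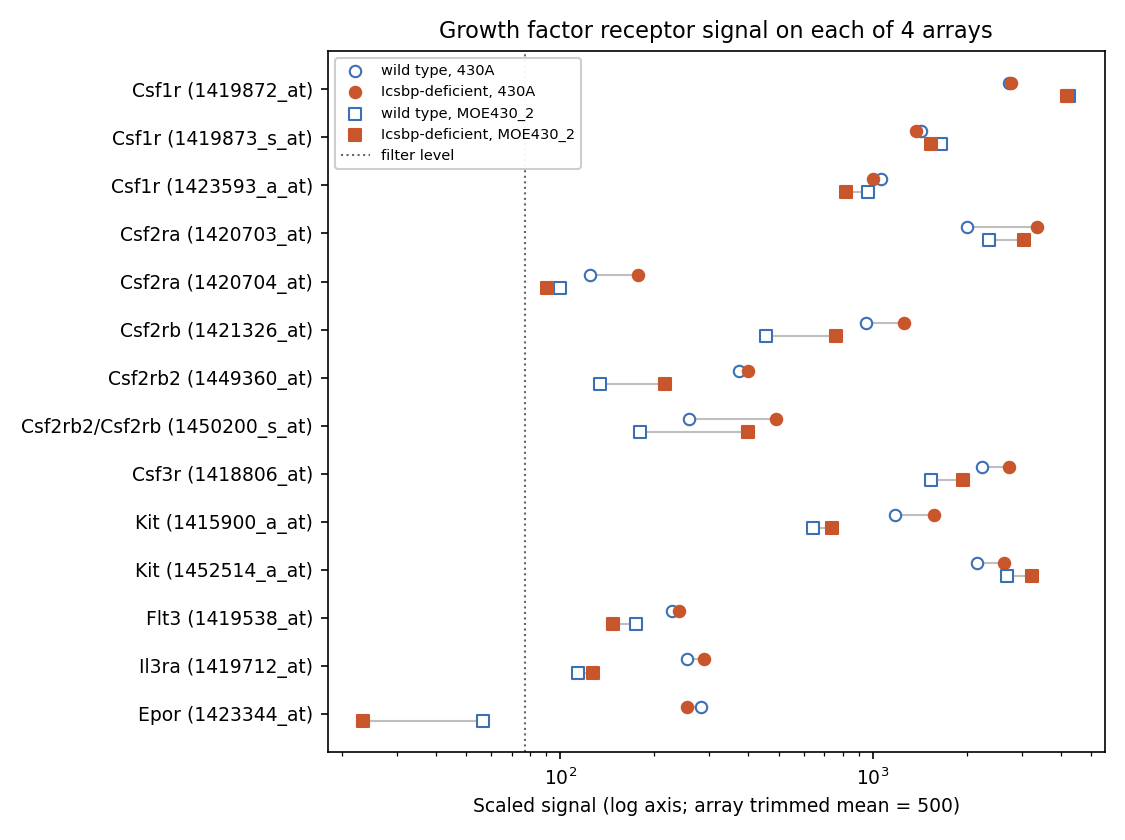
Scaled signal (log axis) of the 14 receptor probe sets on the wild type (open) and Icsbp-deficient (filled) arrays of the 430A (circles) and MOE430_2 (squares) types, with grey lines joining the arrays of a type and a dotted line at the filter level of 76.9. Both Icsbp-deficient points lie to the right of both wild type points for the main Csf2ra and the shared Csf2rb2/Csf2rb probe sets. The share of all tested probe sets with this order was not counted. The Csf1r pairs lie almost on each other.

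The alpha chain of the GM-CSF receptor, Csf2ra, which binds the ligand and sets its specificity, was 1.46-fold higher. The probe set that stands for the gene, here called the main one, read 2004 (wild type) and 3345 (Icsbp-deficient) on the 430A arrays. On the MOE430_2 arrays it read 2356 and 3038. Both Icsbp-deficient arrays lay above both wild type arrays, an order whose share among all tested probe sets was not counted. The log2 ratios, 0.74 (430A) and 0.35 (MOE430_2), had a mean of 0.55 ± 0.13 with a 95% interval from 0.25 to 0.84 and an adjusted p of 0.0429 (limma, n = 2 ratios). This call lies close to the threshold. It was lost with an offset of 16 (adjusted p = 0.0649), without the filter on low signals (0.104), without the intensity trend in the variance (0.168), with the signals as deposited (0.934, at a log2 ratio of 0.30 relative to each array's median) and without array type as a block (0.99985). With 1 of the 4 arrays left out, which drops the block too, the lowest adjusted p was 0.845.

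The second Csf2ra probe set read 125 and 177 on the 430A arrays and 99.7 and 90.8 on the MOE430_2 arrays, wild type first. The genotypes differed in opposite directions on the array types, at log2 ratios of 0.37 and -0.03. The mean was 0.17 ± 0.21 (limma adjusted p = 0.737), and its 95% interval, from -0.31 to 0.65, takes in the value of the main probe set.

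The beta chains, which carry the signal of GM-CSF and interleukin-3 into the cell, were read by 4 probe sets. The one annotated to both Csf2rb2 and Csf2rb read 259 and 489.7 on the 430A arrays and 179.5 and 398 on the MOE430_2 arrays. Again both Icsbp-deficient arrays exceeded both wild type arrays, the order whose share among all tested probe sets was not counted. Its log2 ratios of 0.80 and 1.00 gave the highest mean of the 14, 0.90 ± 0.17, a 1.87-fold difference with a 95% interval from 0.53 to 1.27 and an adjusted p of 0.0136 (limma, n = 2 ratios). The beta chain genes cannot be told apart on this probe set. The call held with an offset of 16 (adjusted p = 0.0241), with the signals as deposited (0.63, adjusted p = 0.0409) and with each of the other normalizations. It was lost without the filter (adjusted p = 0.0713) and without the block (0.766). With 1 array left out as well as the block, the lowest adjusted p was 0.832.

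Csf2rb alone was read by 1 of the 14, at 952 and 1256 on the 430A arrays and at 454 and 762 on the MOE430_2 arrays. Icsbp-deficient GMP were higher within each type, while the groups overlapped across types, since the wild type 430A signal exceeded the Icsbp-deficient MOE430_2 signal. The log2 ratios were 0.38 and 0.72, with a mean of 0.55 ± 0.15 and a 95% interval from 0.21 to 0.89. The adjusted p was 0.0739 over all probe sets and 0.0444 over genes, so limma called it in the fit over genes and not in the fit over probe sets. With 1 array and the block left out, the value was 1.01 without the wild type and 0.23 without the Icsbp-deficient 430A array, and 0.093 and 0.83 without the MOE430_2 array of these genotypes. Another Csf2rb probe set is on the MOE430_2 array only and could not be tested with 1 array a genotype. It went from 1708 in wild type to 2757, a log2 ratio of 0.67, close to the 0.72 of the first probe set on the same arrays.

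Csf2rb2 alone was read at 372 and 399.98 on the 430A arrays and at 134 and 216 on the MOE430_2 arrays. The difference was small on the first type and larger on the second, with log2 ratios of 0.08 and 0.59. The mean, 0.34 ± 0.19, did not pass (limma adjusted p = 0.377), and its interval ran from -0.08 to 0.75. The probe sets of the beta chains thus shared a direction on both array types and differed in size. Ncf4, a phagocyte oxidase subunit and the next gene on the other side of Csf2rb2, had ratios of 0.38 and 0.54 (mean 0.46 ± 0.12, limma adjusted p = 0.0375 over genes).

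Promoter windows are shown for Csf2ra and Csf2rb2, the chains of the called probe sets for which RefSeq's table (GRCm38.p6) gave one. Windows on the chromosome of Csf1r were left out of the search of the receptors, and the table gave none for Csf2rb. Windows of the remaining 7 of the 9 genes run from 250 bases before the start of the gene to 50 after it. They were searched on both strands for GAGGAAG, a site of PU.1, the myeloid transcription factor with which Irf8 can bind DNA, for the core of a joint ETS and IRF site (GGAANNGAA), for the core of an interferon response site (GAAANNGAA) and for a C/EBP site (TTGCNNAA). Capitals mark the PU.1 letters, written 5′ to 3′ on the strand of the gene.
Csf2ra, chr19:61228369-61228668, minus strand: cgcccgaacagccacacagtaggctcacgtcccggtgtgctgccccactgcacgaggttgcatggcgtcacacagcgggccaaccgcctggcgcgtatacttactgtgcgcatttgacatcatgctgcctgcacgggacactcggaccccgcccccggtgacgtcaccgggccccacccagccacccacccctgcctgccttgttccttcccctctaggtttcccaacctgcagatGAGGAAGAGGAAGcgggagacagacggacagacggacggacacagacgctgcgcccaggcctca
Csf2rb2, chr15:78305672-78305971, minus strand: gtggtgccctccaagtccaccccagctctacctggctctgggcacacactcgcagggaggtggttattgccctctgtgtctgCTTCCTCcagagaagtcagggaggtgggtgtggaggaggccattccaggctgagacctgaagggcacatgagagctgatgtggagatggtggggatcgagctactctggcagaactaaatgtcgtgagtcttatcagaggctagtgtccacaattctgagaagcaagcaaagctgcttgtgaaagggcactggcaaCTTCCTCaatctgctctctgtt

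The Csf2ra window held GAGGAAG at positions 237 and 243, which overlap by 1 base and lie just before the start of the gene. The Csf2rb2 window held it on the other strand at positions 83 and 279. Neither held any of the other motifs. Of 32851 windows in the table, 13.6% held GAGGAAG, 8.24% the joint core, 8.56% the interferon response core and 10.8% the C/EBP letters. The same PU.1 letters were in the windows of Csf3r and Kit, whose probe sets were not called, and in none of Flt3, Il3ra and Epor. The probe set of Csf2rb2 alone was not called either, only the one shared with Csf2rb. The Csf3r window also held the interferon response core, and that of Il3ra the C/EBP letters. These are matches of letters and no binding was measured.

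Il3ra, the ligand-specific chain for interleukin-3 that pairs with either beta chain, did not pass the test. Its signals were 255 and 288 on the 430A arrays and 114 and 127 on the MOE430_2 arrays. The genotypes differed little within each type, at log2 ratios of 0.14 and 0.18. The mean was 0.16 ± 0.18 (limma adjusted p = 0.706), and the 95% interval from -0.25 to 0.57 includes changes as large as that of Csf2ra.

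Csf3r, the receptor for G-CSF, the main growth factor of neutrophils, read 2238 and 2722 on the 430A arrays and 1534 and 1949 on the MOE430_2 arrays. Icsbp-deficient GMP were higher on each type by nearly the same amount, 0.29 and 0.34 on the log2 scale. The mean of 0.32 ± 0.12, or 1.24-fold, had a 95% interval from 0.04 to 0.59 and did not pass after adjustment (limma adjusted p = 0.197). Neutrophil marker genes moved further. Of 10 measured, 8 rose and 0 fell, and their summed scaled signal went from 10844 to 29473 on the 430A and from 20063 to 55557 on the MOE430_2 arrays. The part of such transcripts in the Csf3r value was not tested.

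**Figure D2:**
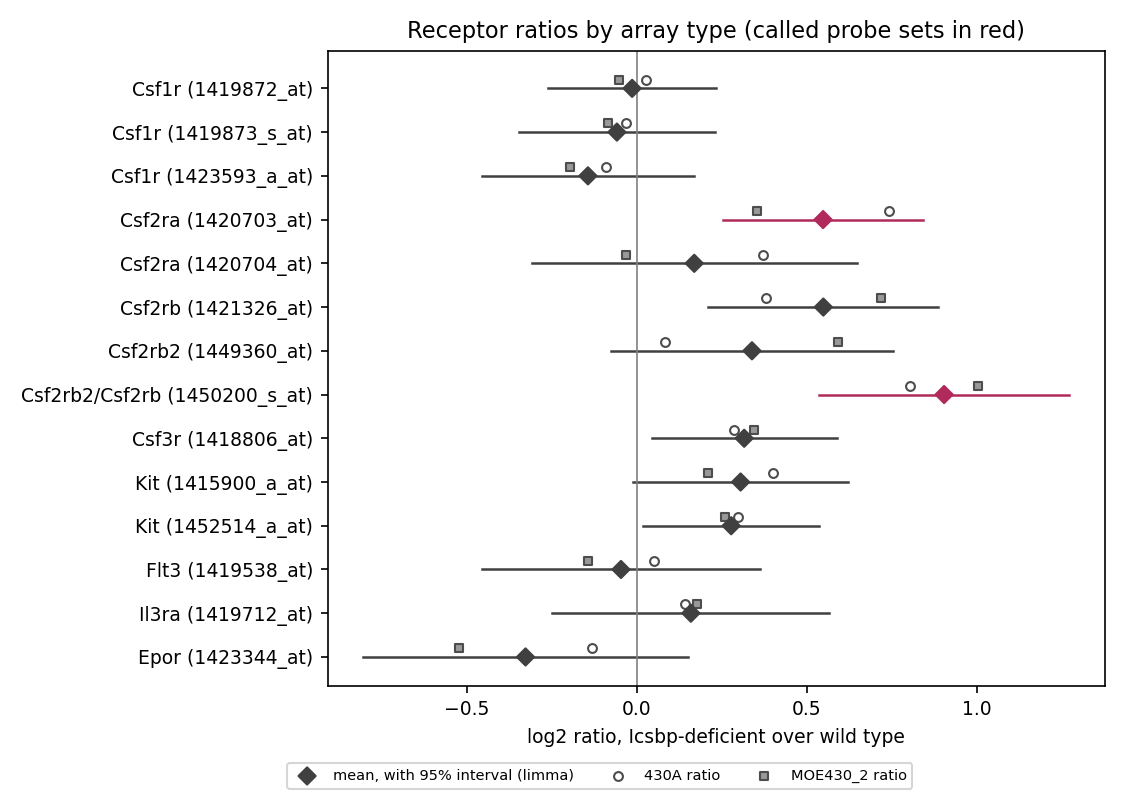
Log2 ratio of Icsbp-deficient over wild type for the 14 receptor probe sets, as the ratio on each array type (circles, 430A; squares, MOE430_2) and as the limma mean with its 95% interval (diamonds and lines), red where the adjusted p was below 0.05. Only the main Csf2ra and the shared Csf2rb2/Csf2rb probe sets are red, at 0.55 and 0.90, and the 3 Csf1r means lie between -0.14 and -0.01.

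None of the 6 probe sets of receptor tyrosine kinases was called by limma, and 1 of them, a Kit probe set, had an unadjusted p below 0.05 (0.0381). Csf1r, the M-CSF receptor of the monocyte and macrophage lineage, had 3 probe sets with similar outcomes. The first read 2719.6 and 2761 on the 430A arrays and 4258 and 4195 on the MOE430_2 arrays. The genotypes were nearly equal on both types, with a mean log2 ratio of -0.01 ± 0.11 (limma adjusted p = 0.965). Its 95% interval, from -0.26 to 0.23, leaves out a change of the size seen for Csf2ra. The sign of this value turned with scaling alone (6.38e-05).

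The second Csf1r probe set read 1422 and 1379 on the 430A and 1651 and 1535 on the MOE430_2 arrays. The third read 1064 and 1003 on the 430A and 963 and 818 on the MOE430_2 arrays. Both were slightly lower in Icsbp-deficient GMP on each type, with means of -0.06 ± 0.13 and -0.14 ± 0.14 (limma adjusted p = 0.854 and 0.646). Monocyte and macrophage markers split, with 4 of 11 rising and 4 falling, and their summed signal went from 10639 to 15560 on the 430A arrays and from 14022 to 20570 on the MOE430_2 arrays. Without F13a1, the gene of the list with the highest signal, the sums were 5739 and 5539 on the 430A and 6014 and 5975 on the MOE430_2 arrays, and the median log2 ratio of all 11 genes was -0.12.

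Kit, the receptor for stem cell factor and a surface marker used to purify GMP, was read by 2 probe sets. The first read 2148 and 2637 on the 430A arrays and 2683 and 3242 on the MOE430_2 arrays. The second read 1179 and 1572 on the 430A arrays and 644 and 742 on the MOE430_2 arrays. Icsbp-deficient GMP were higher on both array types, with log2 ratios of 0.30 and 0.26 for the first and 0.40 and 0.21 for the second. Both probe sets were read on the same arrays and are not independent. Their means, 0.28 ± 0.12 and 0.30 ± 0.14, did not pass (limma adjusted p = 0.236 and 0.287), and the intervals ran from 0.02 to 0.54 and from -0.01 to 0.62. A gene used to sort the cells has a level that the gate can set, and the gate of these samples is not described in the labels.

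Mast cells also use Kit, and both mast cells and basophils use the interleukin-3 receptor. Of 11 measured genes of basophils, mast cells and eosinophils, 8 were tested and 8 fell. Their summed scaled signal went from 6477 to 2371 on the 430A and from 9152 to 2239 on the MOE430_2 arrays, while the Kit and Il3ra ratios were above 0. The part of these cells in the receptor values was not tested.

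Flt3, a receptor of early progenitors and of dendritic cell precursors, read 227 and 240.2 on the 430A arrays and 174 and 147 on the MOE430_2 arrays. The order of the genotypes differed between the types, at 0.05 and -0.15 on the log2 scale. The mean was -0.05 ± 0.18 (limma adjusted p = 0.924) with an interval from -0.45 to 0.36. Among markers beside it, 3 of 4 tested dendritic cell genes and 4 of 6 tested stem and multipotent progenitor genes fell. These 3 dendritic genes were the class II antigen presentation genes H2-Aa, H2-Eb1 and Cd74. The other dendritic markers measured, Itgax, Zbtb46, Batf3 and Cd209a, were under the filter and not tested, so the list does not read dendritic cells alone. Summed dendritic signals went from 1190.3 to 947 on the 430A and from 838 to 330.1 on the MOE430_2 arrays. Summed signals of the stem and multipotent list went from 5878 to 3596 and from 8476 to 4573 in the same order. Sox4 and Cd48 had the highest signals of that list on every array.

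Epor, the receptor that sustains red cell precursors, had the most negative mean of the 14. It read 282 and 254 on the 430A arrays and 56.7 and 23.3 on the MOE430_2 arrays. Both MOE430_2 signals lay under the filter level of 76.9, so Epor passed the filter through the 430A arrays. Icsbp-deficient GMP were lower on both types, at log2 ratios of -0.13 and -0.52. The mean of -0.33 ± 0.21 did not pass (limma adjusted p = 0.466), with an interval from -0.81 to 0.15. Of 9 measured erythroid genes 2 of the 6 tested fell, Car1 and Car2. The sum of the 9 went from 4434 to 3566 on the 430A and from 5428 to 3162 on the MOE430_2 arrays. Within it Tfrc, which was not called, read 3010 and 2950 on the 430A and 3244 and 2865 on the MOE430_2 arrays. The part of erythroid transcripts in the Epor value was not tested.

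**Figure D3:**
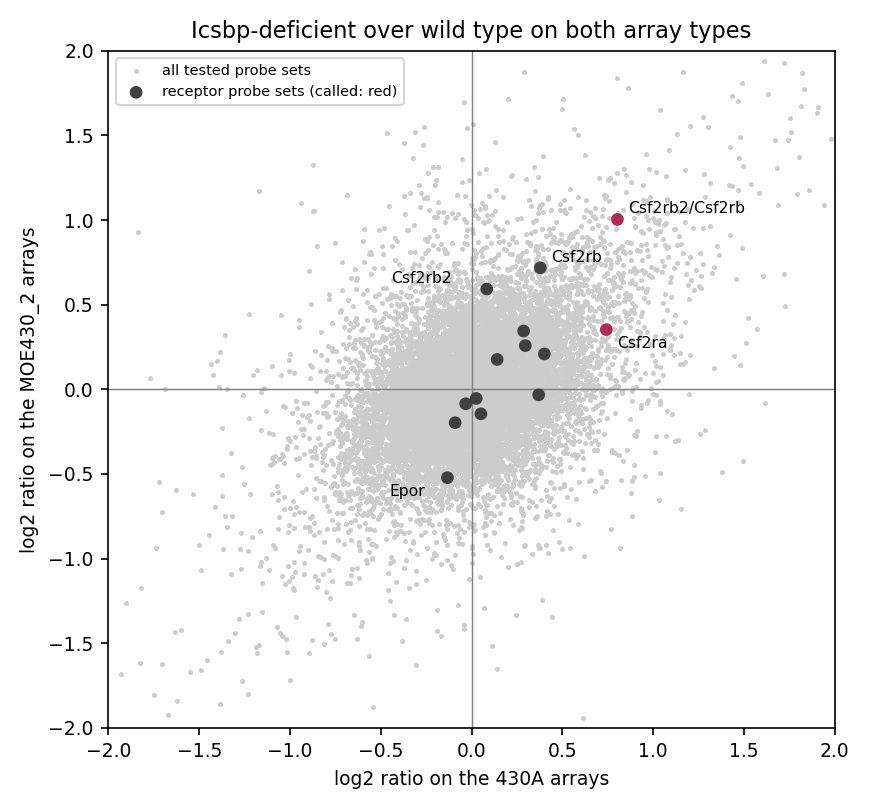
Log2 ratio on the 430A arrays (x axis) against that on the MOE430_2 arrays (y axis) for all 13576 tested probe sets (grey) and the 14 receptor probe sets (dark, red where called), with 47 grey points beyond the axis limits of 2. The shared Csf2rb2/Csf2rb point, at 0.80 and 1.00, lies farthest from the origin among the receptors, and the Csf1r points lie inside the dense centre.

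The receptors agreed between array types to differing degrees. The gap between the 430A and MOE430_2 ratios was below the median gap of all tested probe sets, 0.22, for 9 of the 14 probe sets. It was above it for both Csf2ra probe sets, for those of Csf2rb and Csf2rb2 alone and for Epor. For Csf2ra the 430A ratio was the larger one and for Csf2rb and Csf2rb2 the MOE430_2 ratio.

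By distance between pairs of ratios, the 3 tested genes nearest to Csf2ra were the protease inhibitor Serpinb1a (0.73 on 430A and 0.38 on MOE430_2), 2610301B20Rik (0.78 and 0.36) and the oxidase subunit Ncf1 (0.71 and 0.40). For Csf2rb and Csf2rb2 the pair was that of the probe set of each gene alone, not of the called one they share. Nearest to Csf2rb were the kinase gene Hunk (0.38 and 0.69), Csrp2 (0.37 and 0.74) and the mannose receptor Mrc1 (0.35 and 0.74). Nearest to Csf2rb2 were Selenbp1 (0.10 and 0.59), the transcription factor Tead3 (0.07 and 0.60) and Enc1 (0.08 and 0.56). This likeness rests on 2 ratios a gene over 4 arrays.

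Genes that make or carry the signals of these receptors were taken from 7 lists with 85 genes, of which 72 were on both array types and 56 were tested. Of the 56 genes 5 rose and 1 fell, or 8.93% and 1.79%, beside 4.10% and 3.27% of all 7822 genes. An unadjusted p below 0.05 was reached by 15 of them, or 26.8%, beside 21.3% of all genes. Their median log2 ratio was 0.10, against -0.01 for all genes. Adjusted p-values here are from limma over all genes. The count moved with the settings, from 0 with the signals as deposited to 12 with scaling alone or with the 60th percentile as the filter.

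Most ligand genes had low signals. Csf2, Csf3, Il3, Il5 and Il34 were under the filter, and 2 of 7 measured ligands were tested. Csf1, which encodes M-CSF, read 253 and 153 on the 430A arrays and 151 and 63.7 on the MOE430_2 arrays. It was lower in Icsbp-deficient GMP on both types, and the mean log2 ratio of -0.69 ± 0.19 missed the threshold (limma adjusted p = 0.0543). Kitl, which encodes stem cell factor, read 192 and 167 on the 430A and 9.97 and 57.7 on the MOE430_2 arrays, with ratios in opposite directions and a mean of 0.35 ± 0.27 (limma adjusted p = 0.515).

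Among 6 tested partner and other receptors, Ifngr1, a chain of the interferon gamma receptor, rose by 0.96 ± 0.12 (limma adjusted p = 0.000705). It read 2565 and 5109 on the 430A arrays and 1233 and 2399 on the MOE430_2 arrays. Il6st, the signalling chain of the interleukin-6 receptor, had ratios of 0.71 (430A) and 0.26 (MOE430_2) and did not pass. Of 12 tested kinases and 4 tested STAT genes 0 were called, and 1 kinase and 2 STAT genes had an unadjusted limma p below 0.05, beside the 21.3% of all genes. Jak2, the kinase bound to the beta chain, Csf3r and Epor, had a mean of -0.09 ± 0.14 (limma adjusted p = 0.752). Stat5a and Stat5b, the STAT proteins that GM-CSF and erythropoietin activate, were at 0.03 ± 0.14 and 0.24 ± 0.14 (limma adjusted p = 0.93 and 0.362).

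Of 9 tested adaptors and Ras genes, Sos2, an exchange factor that loads Ras, rose by 0.55 ± 0.14 (0.53 on 430A and 0.57 on MOE430_2, limma adjusted p = 0.0352). Of 13 tested inhibitors, Dok3, an adaptor that dampens signalling of immune receptors, rose by 0.80 ± 0.14 (0.79 and 0.81, adjusted p = 0.00562). It read 600.4 and 1086 on the 430A arrays and 431 and 775 on the MOE430_2 arrays. The phosphatase Ptpn6 was at 0.43 ± 0.13 (0.62 and 0.24, limma adjusted p = 0.087), and Nf1, which turns Ras off, at 0.06 ± 0.24 with ratios of -0.30 and 0.42 (limma adjusted p = 0.91).

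STAT5-induced feedback inhibitors gave no call. Cish was at -0.10 ± 0.19 (limma adjusted p = 0.798). Socs3 and Socs2 were under the filter, Socs3 at 72.6 and 102 on the 430A and 10.9 and 42.9 on the MOE430_2 arrays and Socs2 at 32.5 and 32.3 and at 42.1 and 15.8.

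Of 10 tested target genes 2 rose and 1 fell. Id1, an inhibitor of basic helix-loop-helix factors, rose by 0.76 ± 0.15 (limma adjusted p = 0.0137) and Cebpb, a transcription factor of emergency granulocyte production, by 0.50 ± 0.13 (limma adjusted p = 0.0455). The other Cebpb probe set was not called in the fit over probe sets (0.36, limma adjusted p = 0.237). Ccnd2, a cyclin of the G1 phase induced by growth factors, fell by 0.72 ± 0.12 (limma adjusted p = 0.00469), and it was lower on both types, at 2579 and 1540.4 on the 430A and 2628 and 1548 on the MOE430_2 arrays. All 6 of its other tested probe sets had negative means, from -0.91 to -0.32, and 2 of these were called in the fit over probe sets. Pim1, a kinase gene induced through STAT5, was at -0.45 ± 0.16 (-0.69 and -0.22, limma adjusted p = 0.119).

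**Figure D4:**
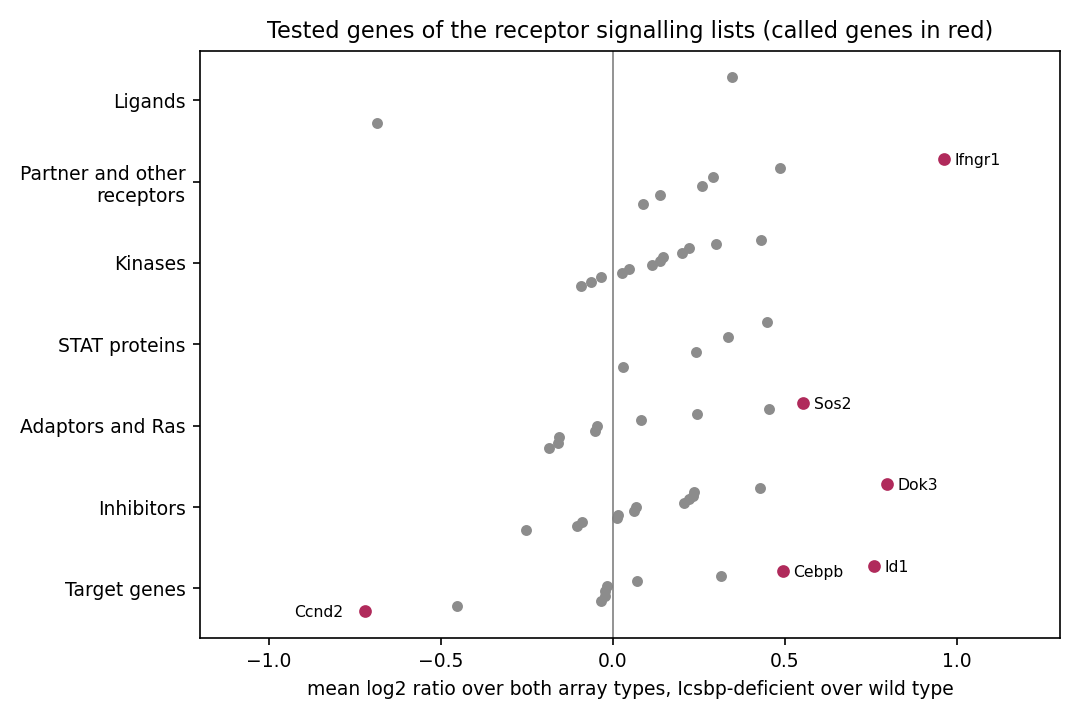
Mean log2 ratio over both array types of the 56 tested signalling genes, by list, 1 point a gene, red and named where the limma adjusted p over genes was below 0.05. Ifngr1, Sos2, Dok3, Id1 and Cebpb lie to the right of 0 and Ccnd2 to the left at -0.72, while every kinase and STAT point lies between -0.09 and 0.45.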

How the data were processed

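Affymetrix arrays were hybridised with GMP RNA of 2 wild type and 2 Icsbp-deficient preparations. The authors deposited linear signal intensity values for 22690 (430A) and 45101 (MOE430_2) probe sets. Per the submitters' processing notes GCOS was used for the MOE430_2 arrays; no source used here gives other steps. Deposited trimmed means were 498 (wild type) and 167 (Icsbp-deficient) for 430A, and 160.4 and 158.6 for MOE430_2.

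After 64 control probe sets were left out, the 22626 shared probe sets were scaled to a trimmed mean (2% off each end) of 500 and an offset of 50 was added before log2. The arrays of a type were then quantile normalized together. The 9050 probe sets under the 40th percentile of mean level were not tested. Genotype was tested across all genes and probe sets with limma 3.58.1 in R 4.3.3 (array type as a block, intensity trend, Benjamini-Hochberg, threshold 0.05), with 1 residual and 8.90 prior degrees of freedom. For gene counts the tested probe set with the highest mean level stood for a gene and the fit was repeated (9.66 prior degrees of freedom). Platform symbols were updated through RefSeq (GRCm38.p6), which matched 20351 of 20380 probe sets with 1 symbol.

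Receptors, lists, rules and tests were chosen with earlier results of these data known. Named were every receptor probe set, each called signalling gene, 9 fixed signalling genes, the ligands by level, and the 3 genes nearest to a receptor with a called probe set. Ncf4, Il6st and the named cell type markers other than receptors were named after their values were seen. The labels do not say more of the preparations. The spread behind the p-values is the gap between 2 ratios, 1 an array type, with most degrees of freedom lent by other probe sets. The number of arrays, 4, limits the precision. A further Icsbp-deficient preparation is not analysed here.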

Additional observations from a re-analysis of the deposited data

How the results depend on the processing

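Most calls were lost without array type as a block. That setting also quantile normalized the arrays of both types together, so the effects of these changes cannot be told apart. With no replicate block, 0 receptor probe sets, 2 of all probe sets, 0 signalling genes and 1 of all genes were called; the block is the array type, not a number in the labels. With 1 array left out of that unblocked model, the counts ran from 0 to 0 for receptor probe sets, 17 to 87 for all probe sets, 0 to 1 for signalling genes and 22 to 67 for all genes. An offset of 16 left 1 receptor probe set. Without the filter they were 0, 266, 3 and 287 in the same order, and without the intensity trend 1 receptor probe set, 266 probe sets and 327 genes. With the signals as deposited, whose median log2 ratio was -1.29 (430A) and -0.04 (MOE430_2) before each array was centred on its median, they were 1, 345, 0 and 236, and of the 345 probe sets 151 rose and 194 fell, against 406 and 290. Signalling genes numbered 12 with scaling alone and 12 with the 60th percentile filter, against 6. A floor and cyclic loess moved no count by over 1.5 times.

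Of 186 tested values of single receptor probe sets under other settings, 155 kept direction and side of the threshold, 15 lost a call, 3 gained one and 13 changed sign. On 1 array type alone, with no test, 3 of 28 ratios had the other sign than the mean: Flt3 (0.051) and the first Csf1r probe set (0.026) on the 430A arrays and the second Csf2ra probe set (-0.033) on the MOE430_2 arrays. The gains were all of Csf2rb, with the 60th percentile filter (0.046), scaling alone (0.0478) and the fit over genes (0.0444, adjusted p). Of the 13 tested changes of sign, 1 was Csf1r at 6.38e-05 with scaling alone. The others came from leaving out 1 array without the block, over which the second Kit probe set ran from -0.20 to 0.80, Flt3 from -0.14 to 0.058, Il3ra from -0.13 to 0.46, the first Csf1r probe set from -0.24 to 0.21 and the second from -0.15 to 0.029, Epor from -1.23 to 0.48 and Csf2rb2 from -0.15 to 0.80. In that model a genotype with 1 array compares array types too. Csf2rb ran from 0.093 to 1.01, Csf3r from 0.012 to 0.63, the main Csf2ra probe set from 0.40 to 0.72 and the shared Csf2rb2/Csf2rb probe set from 0.81 to 0.99. With the signals as deposited Csf2rb was at 0.28, Csf2rb2 at 0.11, Csf3r at 0.064, Kit at 0.042 and 0.068, Il3ra at 0.039, Flt3 at -0.071 and the Csf1r probe sets at -0.23, -0.28 and -0.33, with none called.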
